A study of Mus musculus with 15 samples.

Results

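Thalamic relay neurons carry sensory and motor signals to the cortex, and 9 genes that are commonly used to recognise them were followed in 15 bulk RNA-seq libraries of mouse thalamus. The 9 genes were Tcf7l2, Lef1, Gbx2, Rora, Slc17a6, Prkcd, Necab1, Synpo2 and Ntng1. They were chosen by name, with earlier results of these data known. They are 9 of the 29659 genes with a value in each library, and 9 of 9 passed the filter on low values, as did 15804 genes in all.

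All mice were labelled as homozygous for a human APOE4 knock-in and were 4.5 months old. The 5EL group (5xFAD/APOE4+/+/Lilrb4a+/+, n = 5) also carried the 5xFAD amyloid transgenes. The 5ELKO group (5xFAD/APOE4+/+/Lilrb4a-/-, n = 4) in addition lacked Lilrb4a, an inhibitory receptor of myeloid cells. EL mice (n = 3) were APOE4 knock-in mice with intact Lilrb4a and no 5xFAD, and ELKO mice (APOE4+/+/Lilrb4a-/-, n = 3) lacked Lilrb4a without 5xFAD. There was no group with mouse Apoe in place of APOE4, and the knockout was not restricted to one cell type. The labels number the libraries and do not tie each to one animal, so p-values measure the spread between these libraries.

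Relay neurons are glutamatergic and load their vesicles through the transporter encoded by Slc17a6. Their identity is laid down by transcription factors, among them Gbx2 in newborn thalamic neurons and Tcf7l2, a DNA-binding effector of Wnt signaling that stays on in the adult. The thalamus is not uniform. First-order sensory nuclei, higher-order nuclei and midline nuclei differ in a graded set of genes, with Tnnt1 and Prkcd high at the sensory end, Necab1 at intermediate positions and Calb2 at the midline end. The level of one of these genes in bulk tissue therefore reflects which nuclei were sampled as well as what the cells express. In bulk tissue, fewer cells of a type and less RNA per cell cannot be told apart.

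The deposited values are on a log2 scale, so a difference of 1 is a 2-fold change. The labels were checked first. Lilrb4a did not exceed 2.331 in any of the 7 knockout libraries and ran from 2.345 to 2.662 in the 8 with the intact gene, a difference that lies near the floor of the scale. Mouse Apoe stood at 10.90 in ELKO replicate 1 and at 5.92 to 6.37 in the other 14 libraries, so the library labelled ELKO replicate 1 goes against a homozygous knock-in, and the group comparisons that use it are also given without it. The mean of 10 choroid plexus genes was 8.03 in 5EL replicate 1 and 8.44 in ELKO replicate 2, against 5.61 to 6.21 in the rest. Thalamic genes were present in all libraries, since 17 further ones were all above the filter. Of 10 cortex and hippocampus genes, Emx1 and Fezf2 were below it in all 15 libraries, and the other 8 passed it. The mean of these 10 ran from 5.95 to 6.38. This check does not measure how pure the tissue was.

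The 9 genes were abundant. Slc17a6 (mean 13.83) and Prkcd (13.73) were higher than 99.3% and 99.2% of the genes tested, and Gbx2 (9.90), the lowest, was higher than 71.6%. Per kilobase of exon, on the same log2 scale, the order was Slc17a6 (11.39), Prkcd (11.26), Necab1 (10.70), Ntng1 (10.03), Tcf7l2 (9.82), Rora (9.61), Synpo2 (8.95), Gbx2 (8.78) and Lef1 (6.96). Slc17a6 and Prkcd were closer to each other than the spread of Prkcd within groups (SD 0.348). Lef1 was the scarcest transcript per length.

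Tcf7l2 lies on chromosome 19 (GRCm38, 55741820 to 55933654). Its log2 values were 13.08, 12.76, 12.99, 12.85 and 12.85 in 5EL, 12.89, 13.05, 12.87 and 12.94 in 5ELKO, 13.19, 13.04 and 12.86 in EL, and 12.92, 13.05 and 12.94 in ELKO, in replicate order. The whole range was 0.43, or 1.35-fold, and all 4 groups overlapped.

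Lef1 (chromosome 3, 131110471 to 131224356) encodes a close relative of Tcf7l2 that binds the same DNA motif. Its values were 10.06, 9.73, 9.73, 10.11 and 10.24 in 5EL, 10.09, 10.22, 9.92 and 10.09 in 5ELKO, 10.10, 10.40 and 10.67 in EL, and 9.97, 9.91 and 10.16 in ELKO. EL replicates 2 and 3 lay above every other library, and EL replicate 1 lay among the others. Of its exonic bases, 13.7% overlap the antisense gene Gm43352. Counting did not use strand, so reads from the pair cannot be told apart there.

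Gbx2 (chromosome 1, 89927956 to 89931179) encodes a homeodomain factor needed for thalamic neurons and their axons to the cortex. It read 10.21, 9.64, 10.08, 9.46 and 9.66 in 5EL, 9.82, 10.09, 9.88 and 9.91 in 5ELKO, 10.12, 9.97 and 9.83 in EL, and 9.89, 10.05 and 9.95 in ELKO. Its highest and its lowest library were both 5EL (replicates 1 and 4), so the span of 5EL covered the other 3 groups. With 43.5% of its exonic bases shared with the antisense gene D130058E05Rik, Gbx2 is the least certain of the 9 values.

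Rora (chromosome 9, 68653786 to 69388246) encodes an orphan nuclear receptor of sensory relay neurons. Values were 13.30, 13.04, 13.06, 13.30 and 13.41 in 5EL, 13.44, 13.32, 13.13 and 13.28 in 5ELKO, 13.24, 13.52 and 13.75 in EL, and 13.35, 13.11 and 13.51 in ELKO. EL replicate 3 was the highest and 5EL replicate 2 the lowest.

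Slc17a6 (chromosome 7, 51622006 to 51671119), the vesicular glutamate transporter VGLUT2, was the steadiest gene. It stood at 13.89, 13.76, 13.78, 13.70 and 13.77 in 5EL, 13.80, 14.01, 13.69 and 13.68 in 5ELKO, 13.97, 13.95 and 13.83 in EL, and 13.82, 13.87 and 13.89 in ELKO. Its highest and lowest libraries were both 5ELKO, only 0.33 apart (1.26-fold).

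Prkcd (chromosome 14, 30595354 to 30626210), which encodes protein kinase C delta and marks first-order relay nuclei, was the most variable. It read 13.70, 13.22, 13.39, 13.85 and 13.83 in 5EL, 13.89, 13.62, 13.39 and 13.70 in 5ELKO, 13.63, 14.01 and 14.72 in EL, and 13.64, 13.32 and 14.05 in ELKO. From 5EL replicate 2 to EL replicate 3 it spanned 1.50, or 2.84-fold, and EL alone ran over 1.10 of that.

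Necab1 (chromosome 4, 14952245 to 15149794) encodes a neuronal calcium-binding protein. Its values were 13.42, 12.96, 13.22, 12.73 and 12.89 in 5EL, 12.98, 13.44, 13.00 and 13.02 in 5ELKO, 13.35, 13.09 and 12.70 in EL, and 13.09, 13.22 and 13.16 in ELKO. Here EL replicate 3, highest for Prkcd, was the lowest of the 15 libraries.

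Synpo2 and Ntng1 both lie on chromosome 3 (123076519 to 123236149 and 109780040 to 110144011). Synpo2, which encodes an actin-binding protein of the synaptopodin family, read 12.71, 12.32, 12.41, 12.65 and 12.78 in 5EL, 12.76, 12.81, 12.45 and 12.54 in 5ELKO, 12.68, 12.80 and 13.02 in EL, and 12.81, 12.46 and 12.67 in ELKO. Ntng1 encodes netrin-G1, a lipid-anchored adhesion molecule of thalamocortical axons. It read 13.22, 12.86, 12.94, 12.96 and 13.05 in 5EL, 13.07, 13.26, 12.95 and 12.96 in 5ELKO, 13.14, 13.21 and 13.25 in EL, and 13.14, 12.98 and 13.08 in ELKO. Both genes were lowest in 5EL replicate 2.

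**Figure D1:**
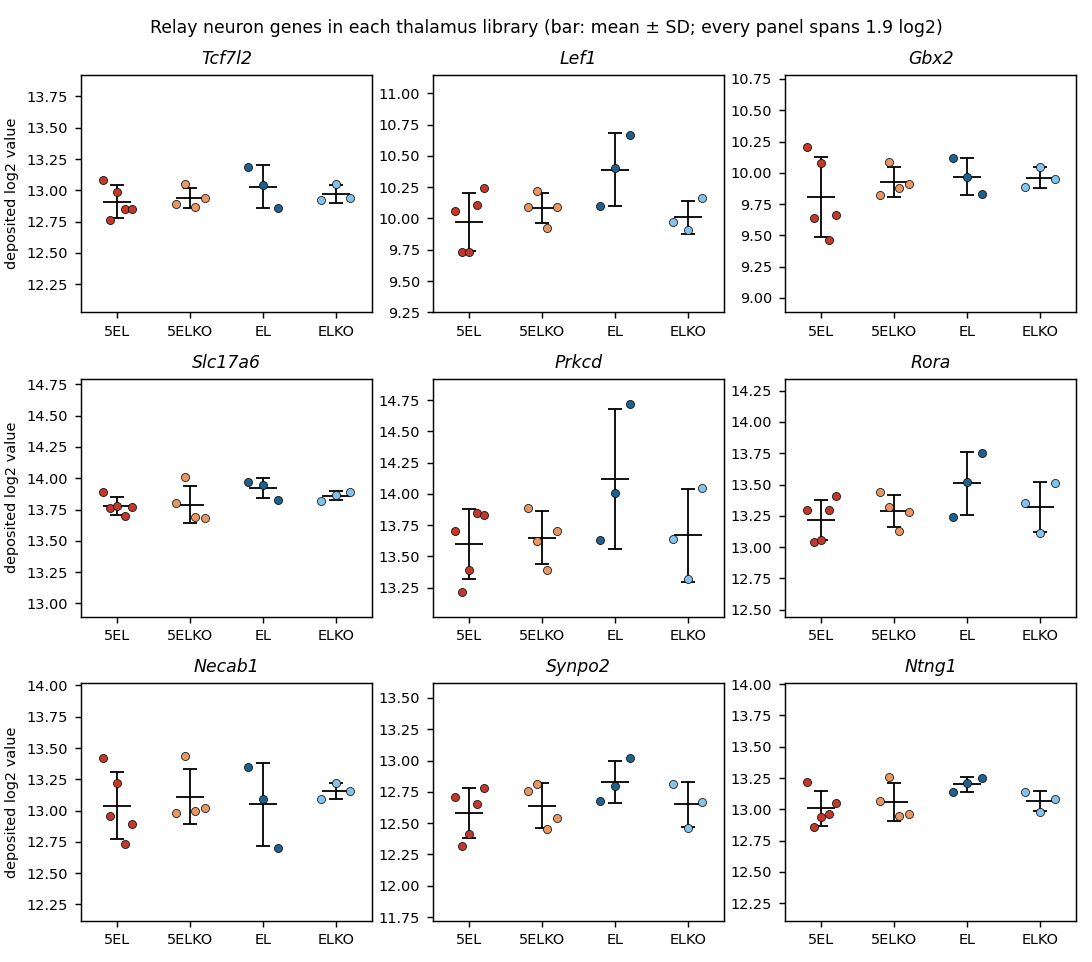
Deposited log2 value of each of the 9 genes (vertical axis, the same span in every panel) in the 15 libraries, by genotype group. Each point is 1 library in replicate order and the bars give mean ± SD. Prkcd spread most, from 13.22 to 14.72, and Slc17a6 least, from 13.68 to 14.01, and all groups overlapped.

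Averaged by group, EL was the highest group for 8 of the 9 genes and 5EL the lowest for 9 of 9. For Prkcd the means were 14.12 ± 0.56 in EL (SD, n = 3), 13.67 ± 0.37 in ELKO (n = 3), 13.65 ± 0.21 in 5ELKO (n = 4) and 13.60 ± 0.28 in 5EL (n = 5). For Lef1 they were 10.39 ± 0.29, 10.01 ± 0.13, 10.08 ± 0.12 and 9.97 ± 0.23. These orders rest on small steps. Of 27 neighbouring pairs of group means, 3 were further apart than the larger SD of the pair, each being the step from EL to the next group for Lef1, Synpo2 and Ntng1. The ranges of any 2 groups overlapped for every one of the 9 genes. Most genes overlapped too. Of 15804 genes, groups did not overlap for 1.07% in 5ELKO against 5EL, 4.59% in ELKO against EL, 3.26% in 5EL against EL and 3.40% in 5ELKO against ELKO. The overlap is thus not particular to the 9.

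The effect of removing Lilrb4a in amyloid-bearing mice is the comparison the study was built on. Between 5ELKO and 5EL, 0 of the 9 genes passed an adjusted p under 0.05 (limma, Benjamini-Hochberg over 15743 genes), where 0.0191% of all genes did. A nominal p under 0.05 was reached by 0 of 9, against 2.49% of all genes. All 9 differences were positive and small, from 0.015 for Slc17a6 (13.79 ± 0.15 in 5ELKO, 13.78 ± 0.0708 in 5EL) to 0.117 for Gbx2 (9.93 ± 0.12 and 9.81 ± 0.32), with a median of 0.063 beside 0.002 for all genes. The sign was not stable, since 6 of the 9 genes turned negative when 1 library or another was left out (without 5ELKO replicate 2, Slc17a6 stood at -0.058). The 95% intervals ran from -0.14 to 0.17 for Slc17a6, from -0.11 to 0.17 for Tcf7l2, from -0.12 to 0.33 for Lef1 and from -0.24 to 0.34 for Prkcd. A rise or a fall of Slc17a6 or Tcf7l2 larger than 0.17 thus lay outside these intervals, while Prkcd and Necab1 (-0.22 to 0.36) could have moved further unseen. Markers of hepatocytes moved with this contrast. All 6 that were tested were higher in 5ELKO at a nominal p under 0.05, of which Alb and Serpina3k passed adjustment, and the mean of the list of 7 ran from 4.93 to 5.47 in 5ELKO and from 4.52 to 4.78 in 5EL, with Serpina1c below the filter. Other lists also had every gene tested on 1 side. All 6 inhibitory and reticular genes (median 0.407), 5 ependymal (0.118) and 7 oligodendrocyte genes (0.068) were higher in 5ELKO. All 8 habenula (-0.238), 10 choroid plexus (-0.315) and 3 midbrain and subthalamic genes tested (-0.398) were lower. Of these genes, 1 midbrain or subthalamic gene had a nominal p under 0.05. With a choroid plexus covariate 0 of the 9 genes reached that level. The part of the other lists was not tested.

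Without 5xFAD, loss of Lilrb4a was compared in ELKO and EL. Again 0 of 9 passed the adjusted threshold, as did 0% of all genes. Lef1 alone had a nominal p under 0.05, lower in ELKO by 0.38 (10.01 ± 0.13 against 10.39 ± 0.29, 95% interval -0.69 to -0.07, adjusted p = 0.998 by limma). Over all genes, 2.35% reached this level and 1.30% did so with a lower value. Prkcd was 0.449 lower in ELKO (interval -0.97 to 0.07), and 8 of the 9 differences were negative, Necab1 being the exception at 0.112 (SE 0.177). The count for Lef1 rests on single libraries. Without EL replicate 3 the Lef1 difference was -0.239, and no gene of the 9 reached a nominal p under 0.05, as was also the case without ELKO replicate 1, the library with mouse Apoe, or without ELKO replicate 2. Without EL replicate 1 there were 3, and without ELKO replicate 3 there were 2. The count over all genes moved as well. It was 1832 of 15831 without EL replicate 1 and 1380 of 15830 without ELKO replicate 3, beside 372 of 15804 with all libraries. It was 215 of 15825 without EL replicate 3, 351 of 15830 without ELKO replicate 1 and 194 of 15824 without ELKO replicate 2. All 10 choroid plexus genes were higher in ELKO (median 0.730, 0 of 10 at a nominal p under 0.05), the list running from 5.70 to 8.44 in ELKO and from 5.61 to 6.11 in EL. With the choroid plexus mean as a covariate the Lef1 difference was -0.351, and it was -0.328 with both high libraries left out, where 0 of 9 genes reached a nominal p under 0.05. In 5 other lists all genes tested had 1 sign in this contrast, with 0 of each list at a nominal p under 0.05. All 8 habenula genes (median 0.419) and all 6 inhibitory and reticular genes (0.460) were higher in ELKO, and all 6 hepatocyte genes tested were lower (-0.237). The 5 ependymal genes (0.174) and the 3 midbrain and subthalamic genes tested (0.112) were higher. The habenula list ran from 7.30 to 8.91 in ELKO and from 6.91 to 8.42 in EL, the inhibitory list from 8.59 to 9.65 and from 7.97 to 9.53, and the hepatocyte list did not exceed 4.69 in ELKO and ran from 4.54 to 5.53 in EL. The part of these 5 lists in the result was not tested.

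The 5xFAD transgenes were compared on the intact Lilrb4a background in 5EL and EL. Relay neuron genes were lower in 5EL at nominal p values, with 5 of the 9 under 0.05, all of them lower, where 7.70% of all genes reached that level and 3.88% did so with a lower value. None passed adjustment (0 of 9, and 0% of all genes). Lef1 was lower by 0.42 (95% interval of the difference -0.70 to -0.14), Prkcd by 0.522 (-0.99 to -0.05) and Rora by 0.283 (-0.54 to -0.03), each with adjusted p = 0.63 by limma. Ntng1 (-0.194, SE 0.083) and Synpo2 (-0.259, SE 0.120) made up the 5. These 5 genes also rose and fell together between libraries within groups (r from 0.44 to 0.96, given below). They are therefore not 5 independent results, and the share over all genes does not allow for that. The other 4 genes stood at -0.135 (Slc17a6, SE 0.072), -0.125 (Tcf7l2, SE 0.080), -0.163 (Gbx2, SE 0.138) and -0.002 (Necab1, SE 0.158). The median of the 9 was -0.194, beside 0.001 over all genes.

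Which genes made up this count depended on single libraries. Without EL replicate 3, the difference in Prkcd shrank from -0.522 to -0.22 and that in Lef1 from -0.420 to -0.28, and the genes at a nominal p under 0.05 were 2 others, Tcf7l2 (-0.211, SE 0.081) and Slc17a6 (-0.180, SE 0.080). Without 5EL replicate 2 or 5EL replicate 3 only Lef1 remained below 0.05. Without EL replicate 2, Lef1 and Prkcd did. Without 5EL replicate 1, the library with choroid plexus RNA, 8 of 9 did, Necab1 being the exception. Leaving out both libraries with high choroid plexus genes gave 6, and leaving out ELKO replicate 1, the library with mouse Apoe, gave 5. With the mean of 7 general neuronal genes as a covariate only Lef1 was left (-0.261, SE 0.108), and with a choroid plexus covariate 3 genes. Over all genes, 354 of 15825 were under 0.05 without EL replicate 3 and 995 of 15827 without EL replicate 2. Without 5EL replicates 1, 2 and 3 in turn there were 1104 of 15800, 923 of 15797 and 1128 of 15802. There were 1074 of 15820 without both choroid plexus libraries and 1217 of 15830 without ELKO replicate 1. The neuronal covariate left 664 of 15804 and the choroid plexus covariate 815.

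Markers of neighbouring regions moved with this contrast. In 5EL all 6 markers of inhibitory and reticular thalamic neurons were higher than in EL (median difference 0.752, 1 of 6 at a nominal p under 0.05), as were all 8 habenula markers (median 0.573, 1 of 8). The mean of the inhibitory list ran from 8.39 to 10.14 in 5EL and from 7.97 to 9.53 in EL, and the habenula list from 7.32 to 9.19 and from 6.91 to 8.42. EL replicate 3 had the lowest value of both lists, and no defining marker of either was at the floor. The 7 general neuronal genes ran from 13.42 to 13.52 in 5EL and from 13.50 to 13.52 in EL. Other lists also had every gene tested on 1 side, with 0 of each at a nominal p under 0.05. All 10 choroid plexus (median 0.422), 5 ependymal (0.305) and 3 midbrain and subthalamic genes tested (0.156) were higher in 5EL. All 6 hepatocyte genes tested were lower (-0.206). In lists of mixed sign, 3 of 6 microglia genes (3 higher) and 3 of 9 striatum genes (2 higher, 1 lower) reached that level. Beyond the choroid plexus and neuronal covariates given above, the part these lists play in the result was not tested.

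Between 5ELKO and ELKO, the same contrast on the Lilrb4a-deficient background, the 9 genes lay between -0.068 (Slc17a6) and 0.067 (Lef1). Of the 9, 0 passed the adjusted threshold (0% of all genes) and 0 the nominal one (2.37% of all genes), as was the case without ELKO replicate 1. The interval for Prkcd ran from -0.51 to 0.47 and that for Lef1 from -0.23 to 0.36. Here too, some marker lists had every gene tested on 1 side. The 6 inhibitory and reticular (median 0.737), 5 ependymal (0.185) and 6 hepatocyte genes tested (0.417) were higher in 5ELKO. Of the hepatocyte genes 4 had a nominal p under 0.05. The 10 choroid plexus (-0.631), 8 habenula (-0.104) and 3 midbrain and subthalamic genes tested (-0.298) were lower. Beyond the choroid plexus covariate given further below, the part of these lists was not tested. Whether the deletion effect itself differed between 5xFAD and non-5xFAD mice was tested as an interaction. Lef1 gave 0.487 (95% interval 0.08 to 0.89, adjusted p = 1 by limma), that is, a difference of 0.107 with 5xFAD and of -0.380 without. It was the only one of 9 at a nominal p under 0.05, where 2.73% of all genes reached it, and 0 of 9 and 0% of all genes passed adjustment. Prkcd had a similar estimate with a wider error (0.501, interval -0.18 to 1.18). None of the 9 reached a nominal p under 0.05 without EL replicate 3 (Lef1 at 0.345), without ELKO replicate 2 (0.435), with the choroid plexus covariate (0.445) or with both high choroid plexus libraries left out (0.458). Without 5EL replicate 1 or ELKO replicate 3 there were 2, without EL replicate 1 there were 3, and without ELKO replicate 1 there was 1. In the interaction all 6 hepatocyte genes tested were higher (median 0.618, 6 of 6 at a nominal p under 0.05), while all 10 choroid plexus genes (-1.004) and all 8 habenula genes (-0.631) were lower, 0 of them at that level. All 7 oligodendrocyte genes were higher (0.089, 0 of 7) and the 3 midbrain and subthalamic genes lower (-0.439, 1 of 3). The part of the hepatocyte, habenula, oligodendrocyte and midbrain lists was not tested.

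**Figure D2:**
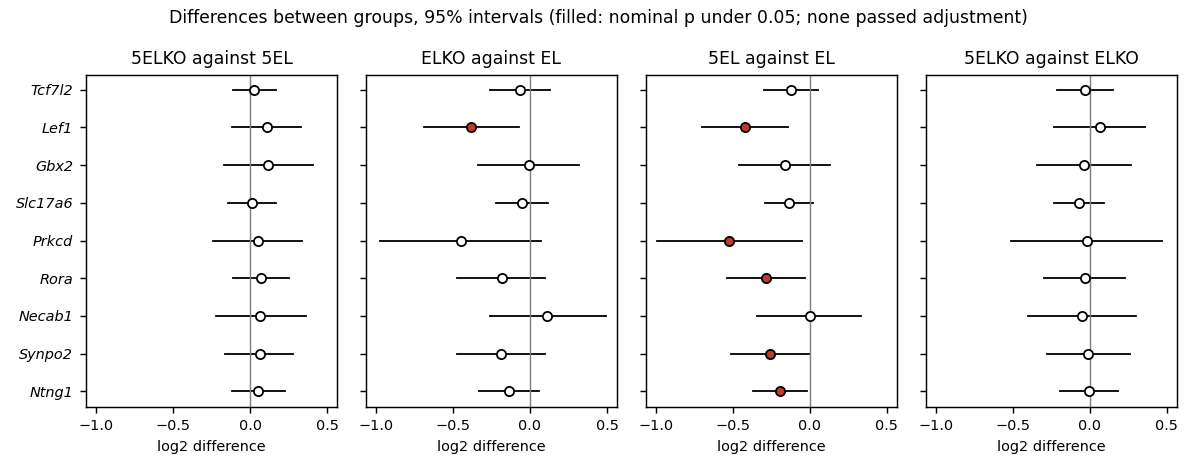
Log2 difference of each of the 9 genes (horizontal axis) in 4 contrasts, first group minus second, with 95% intervals from limma. Filled points mark a nominal p under 0.05. The filled points are Lef1 in ELKO against EL and Lef1, Prkcd, Rora, Synpo2 and Ntng1 in 5EL against EL, all below 0.

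Other thalamic genes were compared in the same contrasts, first 5EL against EL. Of 17 relay and thalamic nucleus genes, 0 passed adjustment and 6 had a nominal p under 0.05, all lower in 5EL (median of the 17, -0.128). Over all genes 7.70% reached that level and 3.88% did so with a lower value. Smallest p values were those of Rorb, a nuclear receptor related to Rora (-0.297, SE 0.078), Ramp3, a receptor-modifying protein (-0.443, SE 0.168), Shox2, a homeodomain factor (-0.181, SE 0.071), and Plcb4, a phospholipase (-0.298, SE 0.122). Rorb was also lower in ELKO than in EL by 0.258 (SE 0.087), the only one of the 17 in that contrast, and in the interaction it stood at 0.323 (SE 0.113), again the only one of the 17 at a nominal p under 0.05. The contrasts share the EL libraries. In 5ELKO against 5EL and in 5ELKO against ELKO, 0 of 17 had a nominal p under 0.05.

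Tcf7l2 and Lef1 act with β-catenin and with Groucho corepressors, and 18 of 19 genes of this pathway were tested (Sp5 was below the filter). None passed adjustment in any contrast. At a nominal p under 0.05 there were 0 in 5ELKO against 5EL, 1 in ELKO against EL (Tle2, a Groucho corepressor, -0.195, SE 0.081), 1 in 5EL against EL (Bcl9, a β-catenin cofactor, 0.273, SE 0.124) and 0 in 5ELKO against ELKO and in the interaction. Among 14 tested paralogs and partners of the 9 genes (Gbx1 and Synpo2l were below the filter), Necab3 was lower in 5ELKO than in 5EL by 0.304 (SE 0.116) and Ntng2 was 0.319 higher in 5EL than in EL (SE 0.149), both at a nominal p under 0.05. Their family members Necab1 (0.065) and Ntng1 (-0.194) differed by other amounts in those contrasts. The other counts of the 14 at that level were 1 lower in ELKO against EL, 1 lower in 5EL against EL and 1 higher in the interaction. The list reached -0.258, -0.297 and 0.323 there, the values given above for Rorb, so these are not further results. None of the 14 passed adjustment.

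Within groups the 9 genes were not equally steady. Prkcd had an SD within groups of 0.348, larger than that of 99.3% of the 150 genes within 0.5 of its mean level. Necab1 (0.248) exceeded 96.7% of 333 such genes, Gbx2 (0.214) 94.0% of 2402, Lef1 (0.204) 93.2% of 2364, Synpo2 (0.184) 91.5% of 496 and Rora (0.183) 89.5% of 248. Ntng1 (0.120, 63.2%), Tcf7l2 (0.116, 60.2%) and Slc17a6 (0.098, 49.2%) varied like other genes of their level.

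**Figure D3:**
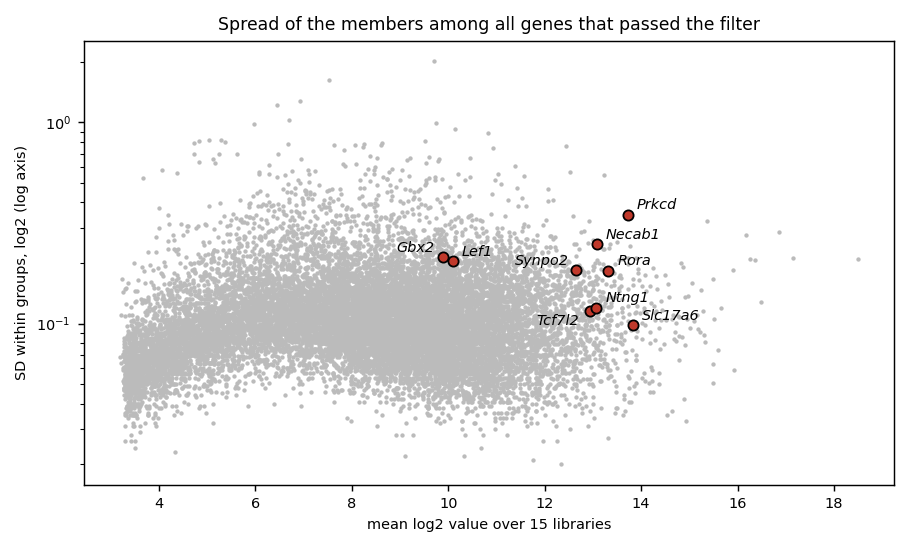
SD within groups (vertical log axis, log2 units) against mean log2 value over the 15 libraries for all genes that passed the filter (grey) and the 9 relay neuron genes (red). Prkcd at 0.348 and Necab1 at 0.248 sit above most genes of their level, and Slc17a6 at 0.098 sits among them.

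The spread was shared between genes. Values were centred on the mean of their group, which removes differences between group means, and all 36 pairs of the 9 genes were correlated over the 15 libraries, with p from 100000 permutations within groups and Benjamini-Hochberg adjustment over the 36. A total of 14 pairs had an adjusted p under 0.05, all with a positive r. They fell into 2 sets, which were named after these correlations had been seen. The first holds Prkcd, Rora, Lef1, Synpo2 and Ntng1 (8 of 10 pairs, r from 0.44 to 0.96 over all 10), and the second Necab1, Gbx2, Tcf7l2 and Slc17a6 (6 of 6 pairs, r from 0.63 to 0.91). Between the sets 0 of 20 pairs passed, with r from -0.51 to 0.66. These permutations treat the libraries of a group as independent, although EL and ELKO libraries of the same number moved together. With those pairs kept together in all 17280 permutations possible, an alternative added after the data were seen, 15 pairs passed, among them the 14.

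The tightest pair was Prkcd and Rora (r = 0.96, p = 0.00013, adjusted p = 0.00234; Spearman's rho = 0.96, p = 0.0002, adjusted p = 0.00312). Without EL replicates 1 and 3, the 2 libraries farthest from the median of Prkcd, r was 0.95. Lef1 followed Rora (r = 0.92, permutation p = 0.00025, adjusted p = 0.003; rho = 0.89, p = 0.00102; 0.87 without the 2 farthest) more closely than it followed its paralog Tcf7l2 (r = -0.26, permutation p = 0.491; rho = -0.20, p = 0.583). In the second set Gbx2 and Necab1 were closest (r = 0.91, permutation p = 3e-05, adjusted p = 0.00108; rho = 0.90, p = 0.00012; 0.86 without 5EL replicates 1 and 4). Tcf7l2 and Necab1 gave r = 0.90 (permutation p = 0.00114, adjusted p = 0.00373; rho = 0.89, p = 0.0014; 0.83 without the 2 farthest). Prkcd and Necab1, both relay neuron genes, did not rise together (r = -0.51, permutation p = 0.124, adjusted p = 0.249; rho = -0.52, p = 0.0898; -0.20 without EL replicates 1 and 3). Ntng1 was intermediate. It went with Synpo2 (r = 0.81, permutation p = 0.0011; rho = 0.88, p = 0.00026; 0.75 without the 2 farthest), less with Prkcd (r = 0.44, permutation p = 0.0699; rho = 0.52, p = 0.0497; 0.42), and it had a positive r with Slc17a6 that did not pass adjustment (r = 0.66, permutation p = 0.0339, adjusted p = 0.0763; rho = 0.45, p = 0.132; 0.42).

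**Figure D4:**
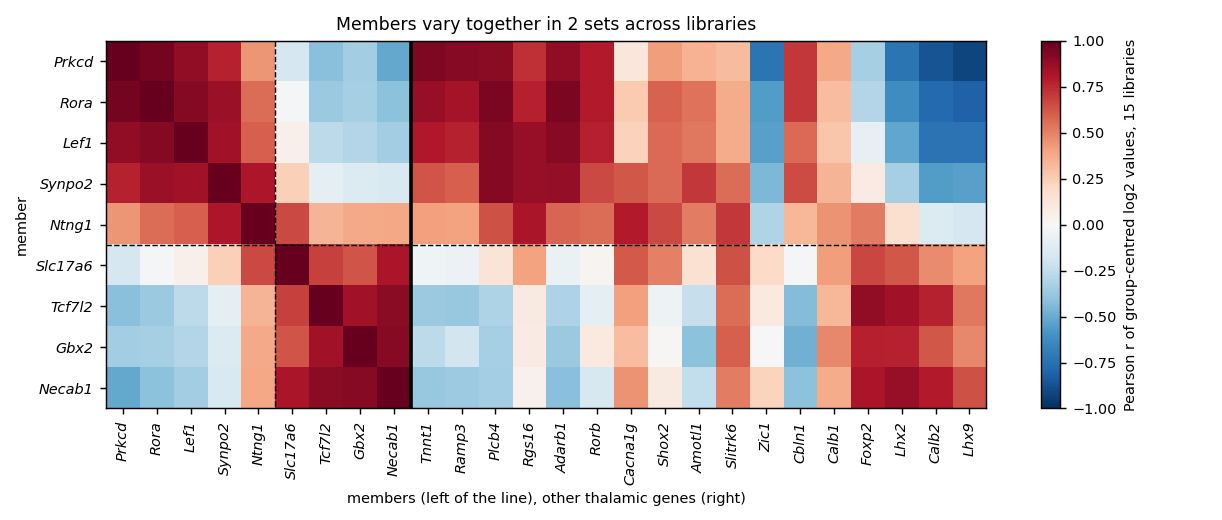
Pearson correlation of group-centred log2 values over 15 libraries between the 9 genes (rows, and columns left of the solid line) and with 17 other thalamic genes (columns right of it), from -1 (blue) to 1 (red). Dashed lines separate the 2 sets. Prkcd, Rora, Lef1 and Synpo2 are red with Tnnt1, Plcb4 and Adarb1, and Necab1, Gbx2 and Tcf7l2 are red with Foxp2, Lhx2 and Calb2.

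The sets went with different genes of the thalamic nuclei. Of 153 relations between the 9 genes and 17 other thalamic genes, 37 had an adjusted p under 0.05 over the 153. The first set went with Plcb4 (4 of 5 genes), Adarb1 (4 of 5), Rgs16 (5 of 5), Tnnt1 (3 of 5) and Ramp3 (3 of 5), and 0 of the 4 genes of the second set did so with any of these. The second set went with Lhx2 (4 of 4), Foxp2 (3 of 4) and Calb2 (3 of 4). With the EL and ELKO pairs kept together 40 relations passed, of which 35 were among the 37. The other 2, Tcf7l2 with Calb2 (adjusted p = 0.0502, exact permutation test) and Rora with Lhx9 (adjusted p = 0.0511), did not. Tnnt1, a troponin subunit that marks first-order nuclei, tracked Prkcd (r = 0.93, permutation p = 0.00025, adjusted p = 0.00382; rho = 0.90, p = 0.00025; 0.88 without EL replicates 1 and 3). Calb2, the calcium-binding protein calretinin of midline nuclei, ran against Prkcd (r = -0.86, permutation p = 0.00205, adjusted p = 0.0121; rho = -0.81, p = 0.00404; -0.74 without the same 2) and with Necab1 (r = 0.79, permutation p = 0.00116, adjusted p = 0.00845; rho = 0.85, p = 0.00064; 0.90 without 5EL replicate 1 and 5ELKO replicate 2). Lhx9, a LIM homeodomain factor, also ran against Prkcd (r = -0.92, permutation p = 0.00043, adjusted p = 0.0053; rho = -0.95, p = 4e-05; -0.85 without EL replicates 1 and 3). Foxp2, a forkhead factor, tracked Tcf7l2 (r = 0.89, permutation p = 6e-05, adjusted p = 0.00204; rho = 0.86, p = 0.00072; 0.84 without the 2 farthest).

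EL replicate 3 was the extreme library for Tnnt1 and Calb2. Tnnt1 was 10.59 there and 9.65 to 10.32 elsewhere, and Calb2 was 10.72 there and 12.29 to 13.08 elsewhere. Without this library the correlation was 0.88 for Prkcd and Tnnt1, -0.77 for Prkcd and Calb2, 0.77 for Necab1 and Calb2 and 0.97 for Prkcd and Rora, over 14 libraries. Ntng1 was then less distinct from the second set. It had r = 0.77 with Slc17a6, 0.56 with Necab1, 0.52 with Tcf7l2 and 0.44 with Gbx2. In its own set r was 0.82 with Synpo2, 0.62 with Lef1, 0.57 with Rora and 0.45 with Prkcd. The correlation of Prkcd with Necab1 did not pass adjustment (r = -0.51 over 15 libraries, -0.26 without EL replicate 3). Their difference therefore joins 2 genes and does not place the libraries on 1 axis. It was 2.03 in EL replicate 3, which is 4.08-fold more Prkcd than Necab1 signal, and 0.28 and 0.92 in the other EL libraries. It was 0.29, 0.26, 0.17, 1.12 and 0.94 in 5EL, 0.91, 0.18, 0.39 and 0.68 in 5ELKO, and 0.55, 0.10 and 0.89 in ELKO, so all 4 groups overlapped between 0.28 and 0.89.

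**Figure D5:**
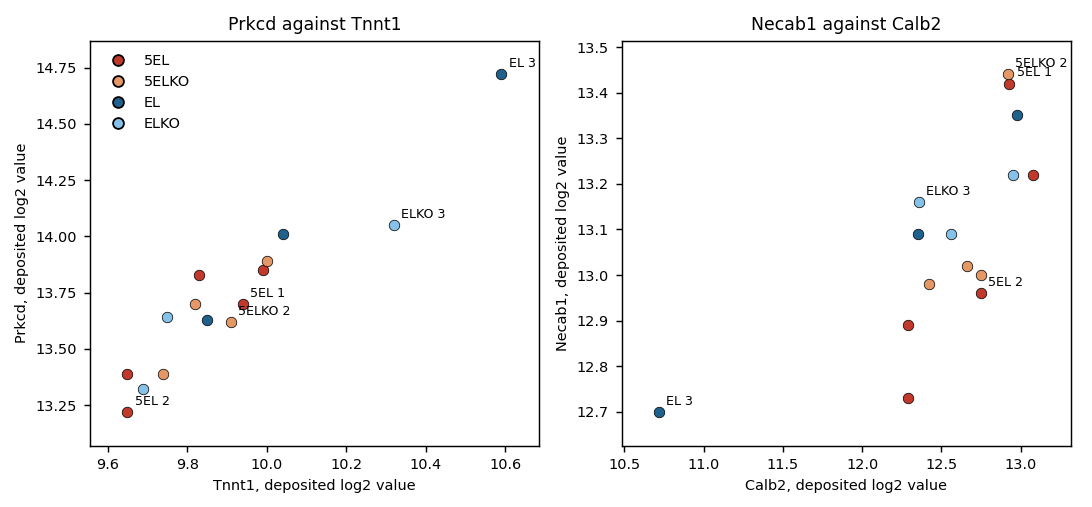
Deposited log2 values of Prkcd against Tnnt1 (left) and of Necab1 against Calb2 (right) in the 15 libraries, coloured by group. Each genotype is spread along both relations. EL replicate 3 lies at one end, with Prkcd at 14.72 and Calb2 at 10.72.

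Cell type markers were related to the 9 genes in the same way, as the mean of each of 15 lists. Of 135 relations 4 had an adjusted p under 0.05. Rora went with the general neuronal list (r = 0.74, permutation p = 0.00089, adjusted p = 0.0324; rho = 0.71, p = 0.00256; 0.76 without EL replicate 1 and ELKO replicate 2), as did Lef1 (r = 0.72, permutation p = 0.00096, adjusted p = 0.0324; rho = 0.71, p = 0.00331; 0.84). Lef1 ran against the hypothalamic list (r = -0.83, permutation p = 0.00073, adjusted p = 0.0324; rho = -0.85, p = 0.00082; -0.86) and Prkcd against the ependymal list (r = -0.84, permutation p = 0.00093, adjusted p = 0.0324; rho = -0.88, p = 0.00027; -0.85). With the EL and ELKO pairs kept together 6 relations passed, 3 of these 4 among them, and Prkcd with the ependymal list did not (adjusted p = 0.0531, exact permutation test). The others that passed were Tcf7l2 (r = -0.78) and Slc17a6 (-0.70) against the oligodendrocyte list and Prkcd with the general neuronal list (0.65). Each had an adjusted p of 0.0312 by that test. Necab1 (-0.72) and Gbx2 (-0.58) also ran against the oligodendrocyte list but did not pass. The hypothalamic list was low throughout (4.55 to 5.68, with Hcrt below the filter in all EL, ELKO and 5ELKO libraries), as was the ependymal list (6.13 to 7.18). Their part in the values of the 9 genes was not tested.

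Genes outside the lists were ranked by how closely they followed the mean of the 9 genes over the 15 libraries, each gene scaled to its own SD. Of 15795 genes, the closest were Agfg1 (r = 0.96), Stxbp6 (0.93), Pth2r (0.93), Nell2 (0.92), Prkch (0.91), Sept5 (0.91), Tmem164 (0.91) and Adra2b (0.91). Prkch encodes another protein kinase C and Pth2r and Adra2b encode receptors. The other end of the ranking included Dlx5 (-0.93), Ebf2 (-0.91), Dusp23 (-0.90) and Vstm2b (-0.89). Dlx5 is a homeodomain factor of forebrain inhibitory neurons. Without the 2 libraries farthest from the median, 5EL replicate 1 and 5ELKO replicate 2, the values ran from 0.80 to 0.92 and from -0.88 to -0.76. These are the extremes of a ranking and carry no p.

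Prkcd, Rora, Lef1 and Synpo2 varied together (r of 0.77 or more in each pair), and the DNA just upstream of these genes is shown. They were chosen after the letters had been searched for. The sequences are the 250 bases before the most upstream RefSeq start (GRCm38.p6), read 5′ to 3′ on the gene's own strand. Capitals mark matches, on either strand, to the TCF/LEF letters CTTTGAT or CTTTGTT, the ROR letters TAGGTCA or AAGGTCA, or the homeodomain core TAATTA.
Prkcd, chr14:30626209-30626458, minus strand: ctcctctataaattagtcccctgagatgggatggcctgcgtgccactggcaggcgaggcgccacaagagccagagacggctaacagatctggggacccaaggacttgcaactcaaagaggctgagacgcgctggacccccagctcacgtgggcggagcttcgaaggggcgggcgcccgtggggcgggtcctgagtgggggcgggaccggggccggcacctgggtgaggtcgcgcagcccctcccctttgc
Rora, chr9:68653536-68653785, plus strand: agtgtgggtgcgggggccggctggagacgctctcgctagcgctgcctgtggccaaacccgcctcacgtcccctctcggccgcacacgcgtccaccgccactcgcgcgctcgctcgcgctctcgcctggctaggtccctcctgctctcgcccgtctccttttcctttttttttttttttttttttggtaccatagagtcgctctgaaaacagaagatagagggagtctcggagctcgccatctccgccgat
Lef1, chr3:131110047-131110296, plus strand: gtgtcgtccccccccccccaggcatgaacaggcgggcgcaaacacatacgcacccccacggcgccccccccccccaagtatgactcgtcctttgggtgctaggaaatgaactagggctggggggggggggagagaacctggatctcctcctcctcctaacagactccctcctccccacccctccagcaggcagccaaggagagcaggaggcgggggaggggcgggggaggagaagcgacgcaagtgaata
Synpo2, chr3:123236150-123236399, minus strand: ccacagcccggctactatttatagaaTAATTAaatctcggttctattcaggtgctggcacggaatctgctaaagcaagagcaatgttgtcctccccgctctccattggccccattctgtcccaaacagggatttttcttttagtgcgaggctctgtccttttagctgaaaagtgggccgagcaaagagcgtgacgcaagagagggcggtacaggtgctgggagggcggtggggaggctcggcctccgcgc
The only match was a TAATTA in Synpo2, starting 224 bases before the start. Of 27025 promoters of this length, 8.06% held a TCF/LEF match, 6.16% a ROR match and 4.91% a TAATTA. Of the 8 relay neuron genes with an entry, 0, 0 and 1 did. GC content was 67.6% for Prkcd, 61.2% for Rora, 66.4% for Lef1 and 54.4% for Synpo2. Absence of these letters speaks only of this window.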

How the data were processed

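Polyadenylated RNA of mouse thalamus was sequenced in 15 libraries of 4 genotypes. Per the labels, the authors used FastQC 0.11.9, Trimmomatic 0.39, HISAT2 2.2.1 on GRCm38, SAMtools 1.16.1, featureCounts 2.0.3 without strand, and DESeq2 1.38.3. The deposited values are log2 values, and neither their transform nor the annotation release is given in the sources used here. They hold no counts, and low genes are drawn towards a floor. The study lists total reads per library for the 5EL and 5ELKO groups. These are not used here, and no depth was found for EL and ELKO in the sources used here.

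Genes had to reach 3.32 (log2) in 4 of 9 libraries (5ELKO against 5EL, 15743 genes) or 3 of 15 (other contrasts, 15804 genes). They were fitted with limma 3.58.1 in R 4.3.3 (eBayes with trend) and adjusted by Benjamini-Hochberg. A gene was called at an adjusted p under 0.05. The fits were also run on simulated data with noise drawn independently for each gene. Genes here varied together, so nothing is drawn from that run. Per-sample columns left unused numbered 0. Positions and exon lengths are from GENCODE M21 on GRCm38, and promoters from RefSeq.

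The 9 genes and all lists were chosen with earlier results of these data known. Genes of the lists were named when among the 4 smallest p values under 0.05 of a list and contrast, and like genes by the 8 highest and 5 lowest correlations. Tnnt1, Calb2, Lhx9, Lhx2, Foxp2, Adarb1 and Rgs16 were chosen after their values were seen. EL and ELKO libraries of the same number moved together (correlations of deviations over genes 0.453, 0.325 and 0.742). Their numbers were taken to pair them, although no source says what they share. Between the other groups these correlations ran from -0.329 to 0.310, and those groups were not taken as paired. Libraries of different numbers were not compared, so the pairing is an assumption. Alternatives were the filter, the libraries in the fit, the variance prior, a replicate block, covariates, recentring and each library left out. One gene at the negative end of the likeness ranking is not reported here.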

Additional observations from a re-analysis of the deposited data

Results flagged for a closer look

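Necab1 in 5ELKO replicate 2 (13.44) stood apart from the other 3 libraries of its group (12.98, 13.00 and 13.02). Its gap to the nearest of them was 0.912 of the range of the group. A total of 18 groups of 4 or 5 libraries were checked in this way, and chance alone picks out about 1 in 20.

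The effect of Lilrb4a deletion on Lef1 differed between mice with and without 5xFAD by 0.487 (SE 0.191, 95% interval 0.08 to 0.89, adjusted p = 1 by limma), from 0.107 with 5xFAD to -0.380 without. The result fails the correction over all genes. Without EL replicate 3 it was 0.345, with an interval from -0.04 to 0.73. That library held the highest Lef1 value of all libraries (10.67).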

How the results depend on the processing

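Of the 9 genes, 0 passed an adjusted p under 0.05 in any of the 5 contrasts under any alternative run, and the smallest adjusted p was 0.0646 (Lef1, 5EL against EL without EL replicate 1). That alternative also took the number of all genes called from 0 to 31. Of 1152 alternative values of the single genes 61 changed sign, and none of those was past the threshold. The cause was not tested. The deposited values hold no counts, so no limit from depth was computed. Tnnt1 and Calb2 were picked for their correlation with Prkcd and Necab1, so how their covariate moves these genes and those that vary with them follows from that choice and is no test.

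In 5ELKO against ELKO the sign turned with the choroid plexus covariate for Tcf7l2 (0.022), Gbx2 (0.064), Necab1 (0.042) and Ntng1 (0.009), without both choroid plexus libraries for Tcf7l2 (0.009) and Gbx2 (0.008), with the Xist covariate for Prkcd (0.077), Rora (0.030), Synpo2 (0.062) and Ntng1 (0.035), with the neuronal covariate for Prkcd (0.020), Synpo2 (0.018) and Ntng1 (0.006), with the Tnnt1 minus Calb2 covariate for Prkcd (0.028) and Synpo2 (0.008), and with recentred libraries for Ntng1 (0.000). Necab1 turned in ELKO against EL with the choroid plexus (-0.001) and Tnnt1 minus Calb2 (-0.078) covariates, and in the interaction with the same covariates (0.116 and 0.151) and without both choroid plexus libraries (0.077). Xist itself ran only from 0.17 to 0.31 over all libraries, far below the filter, while the Y-linked Ddx3y ran from 10.34 to 10.68. The Xist covariate thus held no difference of sex to adjust for, and nothing is drawn from its sign changes.

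The replicate block left 0 of the 9 genes called in each contrast. For ELKO against EL, 1 gene kept a nominal p under 0.05 with the block, and no call changed. That block was fitted over all 15 libraries, so its terms were shared with the 5EL and 5ELKO libraries of the same number. It is therefore not a paired comparison of EL and ELKO alone, and none was run. The main fit of ELKO against EL did not use the numbers either. In the other contrasts the libraries were not taken as pairs. There the block turned Necab1 in 5EL against EL (0.110) and Gbx2 (0.031), Necab1 (0.025) and Ntng1 (0.016) in 5ELKO against ELKO, and 4 genes in place of 5 had a nominal p under 0.05 in 5EL against EL.

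With each library left out in turn, the genes that changed sign ran over these ranges. In 5ELKO against 5EL they were Tcf7l2 from -0.008 to 0.072, Slc17a6 from -0.058 to 0.053, Prkcd from -0.042 to 0.139, Necab1 from -0.045 to 0.159, Synpo2 from -0.001 to 0.127 and Ntng1 from -0.014 to 0.108. In ELKO against EL they were Tcf7l2 from -0.152 to 0.015, Gbx2 from -0.082 to 0.067 and Necab1 from -0.063 to 0.264. In 5EL against EL Necab1 ran from -0.177 to 0.150. In 5ELKO against ELKO they were Tcf7l2 from -0.067 to 0.009, Gbx2 from -0.092 to 0.008, Prkcd from -0.198 to 0.170, Rora from -0.138 to 0.064, Synpo2 from -0.103 to 0.072 and Ntng1 from -0.075 to 0.030. In the interaction they were Slc17a6 from -0.005 to 0.112 and Necab1 from -0.199 to 0.128. The number of genes at a nominal p under 0.05 ran from 1 to 8 in 5EL against EL, from 0 to 3 in ELKO against EL and in the interaction, and from 0 to 1 in 5ELKO against ELKO, where the 1 came without 5ELKO replicate 2. Over all genes it ran from 354 of 15825 to 3204 of 15831 in 5EL against EL. The same count ran from 194 of 15824 to 1832 of 15831 in ELKO against EL and from 269 of 15824 to 1231 of 15831 in the interaction. In 5ELKO against ELKO it was 418 of 15800 without 5ELKO replicate 2.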
